A study of Rattus norvegicus with 24 samples.

Results

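The genes described here encode the complement and coagulation proteins that the liver secretes into plasma. The list held 37 rat symbols, chosen for what their products do and with earlier results of these data known. Each was matched through its Entrez gene identifier to a row of both deposited count tables. Of the 37, 36 had a row, out of 15319 genes measured, and C5 was not analysed here. All 36 had 479 or more counts in every one of the 24 libraries and entered every test below. Together they took between 5.14% and 6.15% of a library's counts.

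The rats were of the Sprague-Dawley stock, which is outbred and carries no engineered allele, and each library held the liver of a separate animal. The study asked how gene expression in the adolescent liver changes when PCB 52, a polychlorinated biphenyl from a family of persistent industrial chemicals, is inhaled. Exposed animals (6 females, 6 males) inhaled PCB 52 nose-only on each of 28 days, 4 hours daily, with a flow of 12 L/min, and the 6 females and 6 males labelled Sham were their controls. What the sham animals breathed is not stated in the labels. Females were 42 days old and males 39 days old at the start, and each sex has its own count table, so a difference between the sexes cannot be told apart from that age step or from the table.

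Coagulation is a chain of proteases that ends in fibrin. Tissue factor with factor VII starts it by activating factor X, the contact and intrinsic proteases (factors XII, XI and IX with plasma kallikrein) feed the same step, and factor X with factor V turns prothrombin into thrombin, which cuts fibrinogen. Antithrombin, heparin cofactor II and the protein C pathway hold thrombin in check, and plasmin dissolves the clot. Complement is a parallel protease system that marks surfaces: the classical, lectin and alternative routes meet at C3, and C5b with C6, C7, C8 and C9 then builds a pore in the target membrane. Hepatocytes are the main source of most of these proteins.

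Library totals ran from 6994832 to 9185511 counts. Levels are given in CPM, counts per 1000000 library counts, and they are compared between animals for a gene and never between genes, because transcript lengths were not used. The summed hepatocyte markers, Alb and 9 other genes, lay between 162613 and 204319 CPM in every library. Animals 13 to 16, all exposed, stood apart from the rest on the main axis of variation within groups, which was built without the 36 genes and held 16.7% of that variance in females and 19.8% in males. Their axis scores ran from 1.37 to 2.10 SD units, while animals 11 and 12, both sham, scored 1.16 and 0.88 and the other animals scored at most 0.80. These are bulk livers, so fewer cells of a type and less RNA per cell cannot be told apart.

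Females and males differed in the level of 11 of the 36 genes in sham or in PCB 52 animals, and 9 of these passed the test in both, in the same direction. Higher in females were F7, F10, Serpinc1, Serpind1, C6 and C8a, and higher in males were Vtn, Pros1 and Proc. The sham comparison called 10 genes, 6 higher in females and 4 higher in males, at an adjusted p under 0.05 (edgeR quasi-likelihood test, Benjamini-Hochberg adjustment over 10535 genes). That is 27.8% of the 36, against 20.3% of all genes tested, with 10.7% of all genes called higher in females and 9.62% higher in males. The PCB 52 comparison, made in 12 other animals, also called 10, again 6 higher in females and 4 higher in males, against 19.9% of all genes, 10.1% higher in females and 9.73% higher in males. F9 was called in sham animals only and F11 in PCB 52 animals only. The median log2 difference over the 36 was 0.01 in sham and 0.04 in PCB 52 animals, and over all genes it was −0.00 in both, so the list did not lean to either sex.

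Among the genes of the extrinsic and common pathway, F7 and F10 were higher in females. F7 (Entrez gene 260320) encodes factor VII, the protease that binds tissue factor at a wound. Its lowest, median and highest levels were 110.3, 142 and 200.1 CPM in sham females and 67.5, 71.9 and 78.2 CPM in sham males. In PCB 52 animals they were 88.7, 134 and 173 CPM in females and 64.0, 76.4 and 82.5 CPM in males. Every female lay above every male in each comparison, and the females were far more spread out than the males (SD 30.9 CPM against 4.01 CPM in sham animals, n = 6 each). The fitted female level was 2.01-fold the male level in sham animals (95% interval 1.67 to 2.41, adjusted p = 5.76e-07, edgeR) and 1.70-fold in PCB 52 animals (1.42 to 2.03, adjusted p = 3.90e-05).

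F10 (Entrez gene 29243) encodes factor X, the protease at which the intrinsic and extrinsic routes meet. Sham females had 555, 573 and 599.9 CPM (lowest, median and highest) and sham males 418, 431 and 456 CPM. The PCB 52 females had 471, 537 and 587 CPM and the PCB 52 males 383, 414 and 442 CPM. The sexes did not overlap in either comparison, and both log2 differences, 0.38 ± 0.07 (SE) in sham and 0.32 ± 0.07 in PCB 52 animals, passed the test (adjusted p = 1.03e-04 and 6.95e-04, edgeR).

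F2, which encodes prothrombin, and F5, the cofactor of factor X, did not pass. F2 had means of 2498 ± 111 CPM (SD, n = 6) in sham females and 2297 ± 135 CPM in sham males, and F5 of 323 ± 76.1 CPM and 264 ± 35.8 CPM. The F5 log2 difference of 0.26 had an unadjusted p of 0.0369 and an adjusted p of 0.133 (edgeR). F10 and F7 are neighbours on the rat genome in RefSeq's order of genes on chromosome 16, and their RefSeq upstream sequences are shown because this neighbouring pair differed between the sexes by unequal amounts. Each is the 250 bases before the gene's start in the GRCr8 assembly, 5′ to 3′ on the gene's strand, with F7 at chr16:83202739-83202988 and F10 at chr16:83190281-83190530, both on the minus strand. Capitals mark CAAAG, the core letters of an HNF4 site, or its reverse complement.
F7: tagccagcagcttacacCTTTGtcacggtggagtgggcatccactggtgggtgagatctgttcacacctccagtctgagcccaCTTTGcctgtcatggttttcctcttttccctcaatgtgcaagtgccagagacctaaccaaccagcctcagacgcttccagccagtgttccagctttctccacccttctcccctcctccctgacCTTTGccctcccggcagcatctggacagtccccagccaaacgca
F10: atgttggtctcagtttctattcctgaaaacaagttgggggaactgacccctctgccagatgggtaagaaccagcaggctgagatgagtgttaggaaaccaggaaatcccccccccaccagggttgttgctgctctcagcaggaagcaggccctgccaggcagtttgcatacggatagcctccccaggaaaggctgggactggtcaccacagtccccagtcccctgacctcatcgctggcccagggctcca
The F7 window holds 3 matches and the F10 window none of the motifs searched. CAAAG was in 48.1% of all 27457 RefSeq windows, and a link between these matches and the sex difference was not tested.

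**Figure D1:**
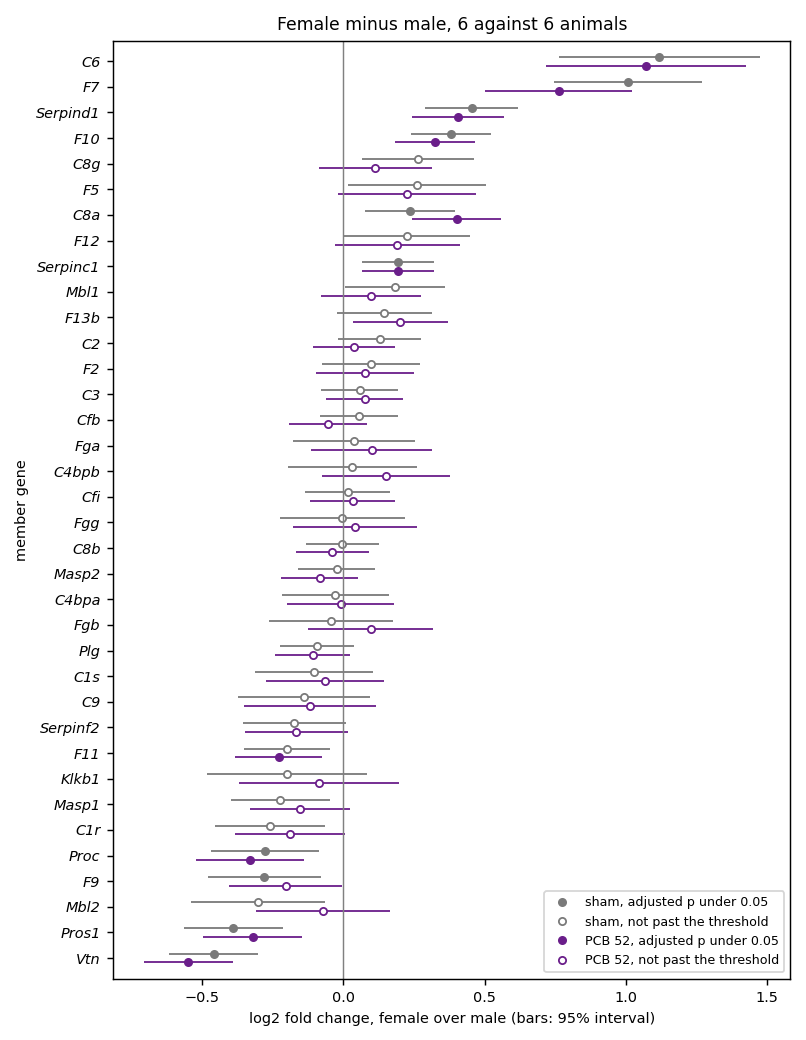
Sex difference of the 36 genes as log2 fold change of females over males (x axis), with 95% intervals as bars, in sham (grey) and PCB 52 (purple) animals, 6 females against 6 males each. Filled points have an adjusted p under 0.05, and C6 and F7 lie farthest to the right and Vtn farthest to the left in both comparisons.

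In the contact and intrinsic pathway, F9 passed in sham animals and F11 in PCB 52 animals, both lower in females. F9 encodes factor IX, whose loss causes haemophilia B. Sham females had 596, 658 and 790.3 CPM (lowest, median and highest) and sham males 727, 803 and 898 CPM, so the groups overlapped. Its log2 difference was −0.28 ± 0.10 (SE, adjusted p = 0.0414, edgeR) in sham animals and −0.20 ± 0.10 (adjusted p = 0.156) in PCB 52 animals. The sham call of F9 was lost when any of 8 libraries was left out. In PCB 52 animals F9 passed with consecutive animals as a block (adjusted p = 0.0163, edgeR), with the library axis as a covariate (0.00748) and without animal 16 (0.0463).

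F11 encodes factor XI, which activates factor IX. Its means were 193 ± 12.9 CPM (SD, n = 6) in sham females and 218 ± 19.7 CPM in sham males, and 201 ± 12.2 and 230.4 ± 13.1 CPM in PCB 52 females and males. The log2 difference was −0.20 (adjusted p = 0.0584, edgeR) in sham animals and −0.23 (adjusted p = 0.0283) in PCB 52 animals, and the second call was lost when any of 6 libraries was left out. Whether the sex difference of F9 or F11 differed between sham and PCB 52 animals was tested by the interaction term, whose adjusted p was 1.00 for each gene. F12, the gene of factor XII, and Klkb1, the gene of plasma kallikrein, did not pass. Sham means were 985 ± 104 and 828 ± 63.3 CPM for F12 and 339.7 ± 85.2 and 384 ± 16.5 CPM for Klkb1, females first.

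All 4 anticoagulant genes differed between the sexes in both comparisons, and they split by direction. The serpins that block thrombin, antithrombin (Serpinc1) and heparin cofactor II (Serpind1), were higher in females. Proc, the gene of protein C, and Pros1, the gene of its cofactor protein S, were higher in males. Serpind1 (Entrez gene 79224) had 785, 875 and 937 CPM in sham females and 551, 619 and 678 CPM in sham males (lowest, median and highest). In PCB 52 animals it had 790.05, 882 and 989 CPM in females and 572, 657 and 717 CPM in males. No female was as low as any male in either comparison, and the fitted female level was 1.37-fold the male level in sham animals (95% interval 1.22 to 1.54, adjusted p = 7.90e-05, edgeR) and 1.32-fold in PCB 52 animals (1.18 to 1.48, adjusted p = 3.15e-04).

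Serpinc1 (Entrez gene 304917) differed little in size but had the lowest spread of the 36 genes, with a mean coefficient of variation within groups of 2.89%. Its levels were 2667, 2757 and 2901 CPM in sham females and 2329, 2349 and 2501 CPM in sham males (lowest, median and highest). PCB 52 females had 2569, 2659.7 and 2780.3 CPM and PCB 52 males 2181, 2269 and 2342 CPM. The groups did not overlap, and the fitted ratio was 1.14 in each comparison (adjusted p = 0.0239 in both, edgeR). The call was lost without the filter on low counts (adjusted p = 0.0624 in sham and 0.0579 in PCB 52 animals), and in PCB 52 animals also without animals 13 to 16 (adjusted p = 0.117). Leaving out 1 library ended it in 6 cases in sham and 3 in PCB 52 animals.

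Pros1 (Entrez gene 81750) had 247, 252 and 311 CPM in sham females and 306, 331 and 371 CPM in sham males (lowest, median and highest). The PCB 52 females had 252, 276 and 342 CPM and the PCB 52 males 312, 349 and 402 CPM. Every female was below the male mean, and the groups overlapped through animal 12 in sham and animal 14 in PCB 52 females. The log2 difference was −0.39 ± 0.09 (SE, adjusted p = 0.00110, edgeR) in sham and −0.32 ± 0.09 (adjusted p = 0.00661) in PCB 52 animals. Proc (Entrez gene 25268) had means of 454 ± 31.4 CPM (SD, n = 6) in sham females and 539 ± 31.7 CPM in sham males, which did not overlap, and of 401 ± 67.6 and 490.1 ± 57.7 CPM in PCB 52 animals, which did. Its log2 differences were −0.28 and −0.33 (adjusted p = 0.0342 and 0.0106, edgeR), and the sham call was lost when any of 7 libraries was left out.

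The genes of fibrin formation and fibrinolysis did not pass in either comparison. Fga, Fgb and Fgg encode the fibrinogen chains, and their sham log2 differences lay between −0.04 and 0.04, with 95% intervals that together ran from −0.26 to 0.25. F13b, the carrier subunit of the fibrin crosslinker factor XIII, had 244 ± 10.7 CPM (SD, n = 6) in sham females and 217 ± 13.1 CPM in sham males (log2 difference 0.14, adjusted p = 0.245, edgeR). Plg, the gene of plasminogen, had 3561 ± 75.2 CPM in sham females and 3734 ± 28.9 CPM in sham males. Every sham female was below every sham male, and yet the log2 difference of −0.09 did not pass (adjusted p = 0.358, edgeR). Serpinf2, which encodes the plasmin inhibitor antiplasmin, had 819 ± 58.2 and 907 ± 99.6 CPM, females first.

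**Figure D2:**
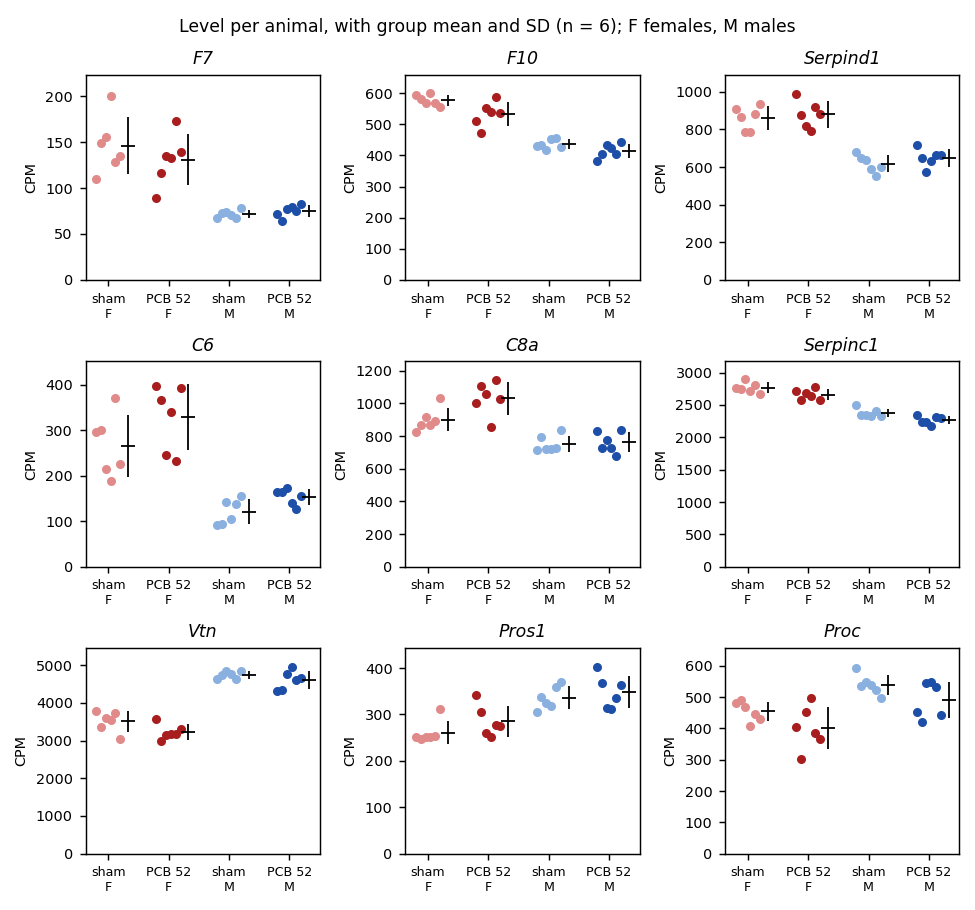
Level in CPM (y axis, from 0) of the 9 genes called in both sex comparisons, with 1 point per animal and the group mean and SD (n = 6) beside it, for sham and PCB 52 females (red) and males (blue). F7, F10, Serpind1, C6, C8a and Serpinc1 are higher in females, and Vtn, Pros1 and Proc are higher in males.

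On the complement side, C6, C8a and the regulator Vtn passed in both comparisons, while none of the 7 classical and lectin pathway genes among the 36 and neither C3 nor Cfb passed in either. C6 (Entrez gene 24237) encodes the component that binds C5b and begins the membrane pore. Its levels were 187, 260.5 and 371 CPM in sham females and 91.0, 121 and 155 CPM in sham males (lowest, median and highest). In PCB 52 animals they were 233, 352 and 397 CPM in females and 126, 159.9 and 173 CPM in males. Every female lay above every male, although C6 had the largest spread of the 36 genes, with a mean coefficient of variation within groups of 20.6%. The fitted female level was 2.17-fold the male level in sham animals (95% interval 1.70 to 2.77, adjusted p = 2.31e-05, edgeR) and 2.10-fold in PCB 52 animals (1.64 to 2.68, adjusted p = 3.68e-05).

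C8a (Entrez gene 298288) encodes the alpha chain of C8, the component that inserts the pore into the membrane. Sham females had 823, 882 and 1033 CPM and sham males 712, 723 and 837 CPM (lowest, median and highest), so these groups overlapped. PCB 52 females had 855, 1042 and 1141 CPM and PCB 52 males 679, 753 and 839 CPM, and these did not. The log2 difference was 0.24 ± 0.08 (SE, adjusted p = 0.0278, edgeR) in sham and 0.40 ± 0.08 (adjusted p = 2.42e-04) in PCB 52 animals, and the sham call was lost when any of 6 libraries was left out. C8b, the beta chain gene next to C8a on chromosome 5, showed no such difference, with 602 ± 24.5 CPM (SD, n = 6) in sham females and 593 ± 23.9 CPM in sham males. Its log2 difference had a 95% interval of −0.13 to 0.13.

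The other terminal genes did not pass. C8g, which encodes the gamma chain of C8, had 335 ± 34.7 and 275 ± 14.9 CPM in sham females and males (SD, n = 6, log2 difference 0.26, adjusted p = 0.0538, edgeR). C9, whose product polymerises into the pore wall, had 988 ± 132 and 1070.0 ± 122 CPM. The upstream sequence of C6, the gene with the highest female to male ratio in both comparisons, is shown with that of Vtn, the gene that differed most in the opposite direction. The RefSeq windows, again 250 bases before the start in GRCr8, lie at chr2:55573383-55573632 for C6 and chr10:63892532-63892781 for Vtn, both on the plus strand. Capitals mark a C/EBP match and an HNF4 core match in C6, and a STAT match and an HNF4 core match in Vtn.
C6: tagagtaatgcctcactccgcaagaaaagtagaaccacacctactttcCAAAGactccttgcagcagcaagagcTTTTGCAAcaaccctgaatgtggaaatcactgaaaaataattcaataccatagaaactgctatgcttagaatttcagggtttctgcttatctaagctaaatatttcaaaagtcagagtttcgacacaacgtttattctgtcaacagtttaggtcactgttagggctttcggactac
Vtn: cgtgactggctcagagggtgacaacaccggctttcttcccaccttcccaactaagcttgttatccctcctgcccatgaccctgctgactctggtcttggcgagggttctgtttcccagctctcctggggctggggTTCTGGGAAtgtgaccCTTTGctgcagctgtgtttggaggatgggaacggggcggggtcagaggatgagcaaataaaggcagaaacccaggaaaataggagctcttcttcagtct

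Vtn (Entrez gene 29169) encodes vitronectin, an adhesive plasma protein that also keeps the terminal complex off host membranes. It had 3043, 3578 and 3774 CPM in sham females and 4629, 4759 and 4855 CPM in sham males (lowest, median and highest). The PCB 52 females had 2983, 3174 and 3586 CPM and the PCB 52 males 4315, 4636 and 4949 CPM. The sexes did not overlap, and the fitted female level was 0.73 of the male level in sham animals (95% interval 0.65 to 0.81, adjusted p = 3.97e-05, edgeR) and 0.68 in PCB 52 animals (0.61 to 0.76, adjusted p = 2.53e-06). The other soluble regulators did not pass. Cfi, the protease that inactivates C3b and C4b, had 1169 ± 61.4 and 1136 ± 61.5 CPM (SD, n = 6) in sham females and males, with a log2 difference of 0.02. C4bpa and C4bpb, the chains of C4b-binding protein, had 634 ± 66.2 and 331.5 ± 47.5 CPM in sham females and 636 ± 63.8 and 319 ± 35.3 CPM in sham males, with log2 differences of −0.03 and 0.03.

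Among the early components, C1r, the protease that starts the classical pathway and activates C1s, came nearest to the threshold. C1r had 752 ± 110.0 CPM (SD, n = 6) in sham females and 885 ± 88.5 CPM in sham males (log2 difference −0.26, adjusted p = 0.0538, edgeR), and C1s had 685 ± 114.8 and 724 ± 89.4 CPM. The mannose-binding lectins, which recognise sugars on microbes, had opposite signs in sham animals: Mbl1 had 174 ± 12.6 and 151 ± 11.7 CPM, and Mbl2 445 ± 48.4 and 539 ± 54.3 CPM, females first, and neither passed (adjusted p = 0.144 and 0.0667, edgeR). Of their proteases, Masp1 had 211 ± 23.2 and 242 ± 22.9 CPM and Masp2 had 232 ± 10.5 and 232 ± 4.00 CPM. C2, which provides the catalytic part of the C3 convertase, had 234 ± 14.8 and 210.1 ± 14.3 CPM, and Cfb, its counterpart in the alternative pathway, 1753 ± 93.1 and 1656 ± 90.8 CPM. C3, the component at which all routes meet, had 14555 ± 647 and 13742 ± 1025 CPM, with a log2 difference of 0.06 (adjusted p = 0.614, edgeR).

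Groups of 6 that did not overlap were seen for 8 of the 36 genes in sham animals, against 11.5% of all genes, and for 7 in PCB 52 animals, against 9.84% of all genes. Of the 36 genes, 33 had the same sign in both sex comparisons, and the share of all genes with the same sign was not counted. The calls for F7, F10, Serpind1, Pros1, C6 and Vtn were kept in both comparisons under every normalization, filter, tool, covariate and left-out library tried. The number of the 36 called in sham animals was less steady, at 16 with limma-voom and 6 without animal 8, a sham female. The share of all genes called with limma-voom is not given here.

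Other genes of these systems, outside the 36, were counted by list in sham animals, to be read against the 10.7% of all genes called higher and 9.62% called lower in females. Among other secreted complement genes, 8 of 14 tested were higher in sham females and 1 lower. The 1 lower was Clu, which encodes the complement inhibitor clusterin, at 667 ± 63.6 CPM (SD, n = 6) in sham females and 998 ± 25.04 CPM in sham males. Cfp, the gene of properdin, which stabilises the alternative convertase, had 69.7 ± 5.69 and 45.8 ± 3.53 CPM, and C1qa, a chain of the C1q recognition protein, 103 ± 4.77 and 74.8 ± 5.75 CPM. C4a had 2719.7 ± 419 and 1836 ± 259.5 CPM, but it is a near-identical copy of C4b, and reads may be split between them. C1qa, C1qb, C1qc and Vsig4 are also macrophage genes, and the summed level of 10 Kupffer cell and macrophage markers ran from 758 to 939 CPM in sham females and from 565 to 681 CPM in sham males, with none of the 10 at 0. Without its 4 complement genes that sum was 442 to 618 CPM against 327 to 425 CPM. The part of macrophage RNA in the C1q difference was not tested.

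Of complement receptors and membrane regulators, 2 of 8 tested were higher in sham females (Vsig4 and Itgb2) and 1 was lower, Cr1l, at 29.5 ± 3.87 against 51.5 ± 7.33 CPM (SD, n = 6). Of other secreted coagulation and fibrinolysis genes, 3 of 16 were higher and 4 lower. Serpina1, the gene of alpha-1-antitrypsin, had a log2 difference of −0.64, and A2m, a broad protease inhibitor, was at 9.69 ± 3.74 CPM in sham females against 56.1 ± 24.7 CPM in sham males. Of tissue factor, receptors and endothelial regulators, 4 of 9 were higher in sham females and none lower. The smallest p was for Gas6, a vitamin K-dependent relative of protein S, at 238 ± 60.7 against 82.9 ± 11.5 CPM. In PCB 52 animals 2 of these 9 were higher in females and 1 lower, with Gas6, F3 (tissue factor) and F2r called. Among all genes, 10.1% were then higher and 9.73% lower. Vsig4 was not called in PCB 52 animals.

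The vitamin K cycle supplies the modified glutamates that factors VII, IX and X, prothrombin and proteins C and S need. Of 8 genes of this cycle and of clotting factor export, 3 were higher in sham females and none lower. Vkorc1, the target of warfarin, had 205 ± 17.1 CPM (SD, n = 6) in sham females and 128 ± 8.58 CPM in sham males (log2 difference 0.66, adjusted p = 1.29e-06, edgeR). Nqo1, a quinone reductase, had 21.8 ± 2.02 and 7.27 ± 0.945 CPM, and Pcsk6, a propeptide-cutting protease, 97.5 ± 22.9 and 48.6 ± 7.04 CPM. Among 21 transcription factors and cytokine signalling genes of liver secretory genes, 2 were higher in sham females and 4 lower. Cux2, a repressor of male-biased liver genes, stood at 192 ± 73.5 CPM in sham females and 2.63 ± 2.17 CPM in sham males, while Hnf4a, Cebpa and Cebpb were not among those called. Of 15 acute phase genes, 3 were higher in sham females, among them Itih4, and 6 lower, among them Serpina1, A2m and Hp, the gene of haptoglobin.

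PCB 52 was not followed by a change that passed the edgeR test in any of the 36 genes, in females, in males or over both sexes. The same was true of all genes tested with edgeR, which called 0.0% of 10251 genes in females and 0.0% of 10180 genes in males. With limma-voom none were called either. DESeq2 called 28 genes in females and 1 in males, none of them among the 36. Over both sexes it called C3 (adjusted p = 0.0114, DESeq2). At an unadjusted p under 0.05, 3 of the 36 lay in females, where 9.96% of all genes did, and 2 in males, where 5.75% did. In neither sex did the groups of 6 separate for any of the 36, against 0.332% of all genes in females and 0.236% in males. Fitted log2 changes of the 36 ran from −0.22 to 0.32 in females and from −0.19 to 0.37 in males. Their 95% intervals reached from −0.48 to 0.72 in females and from −0.40 to 0.63 in males, and lay within 0.5 log2 units of 0 for 33 and 35 of the 36.

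**Figure D3:**
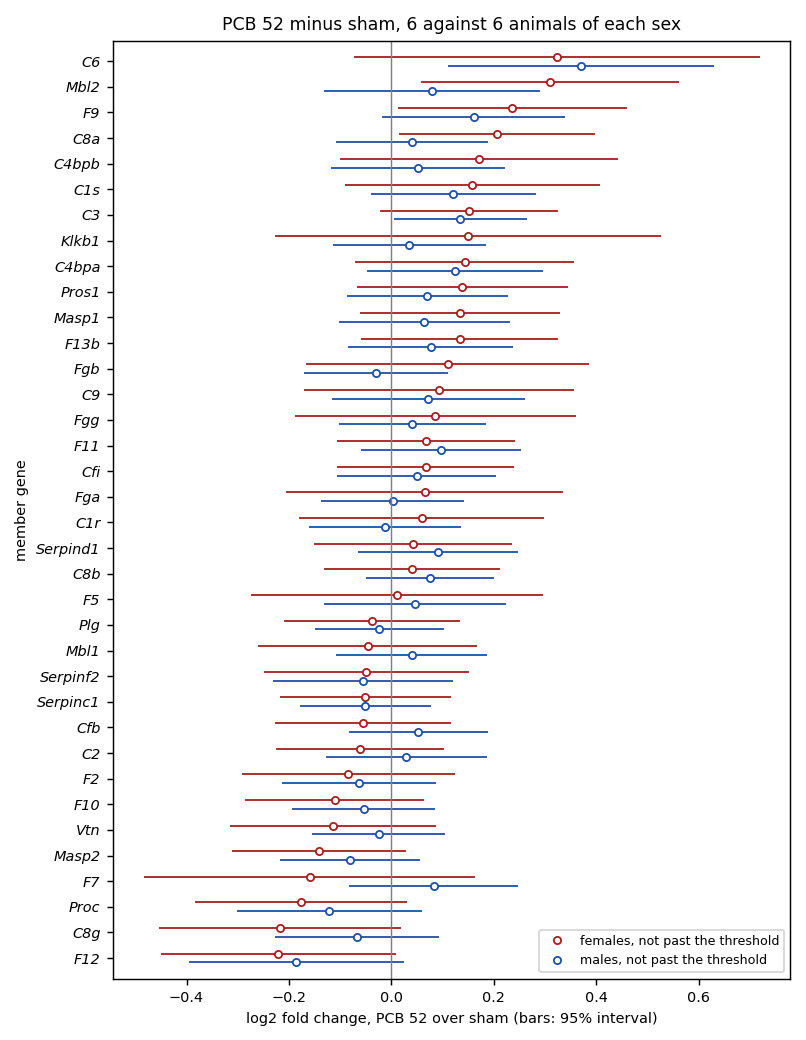
Change with PCB 52 of the 36 genes as log2 fold change over sham (x axis), with 95% intervals as bars, in females (red) and males (blue), 6 exposed against 6 sham animals each. Every point is open, because none has an adjusted p under 0.05, and C6 lies farthest to the right and F12 farthest to the left in both sexes.

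In females the smallest p-values belonged to Mbl2, C8a, F9, F12 and C8g. Mbl2 had 375, 462 and 496 CPM in sham females and 463, 541 and 666 CPM in PCB 52 females (lowest, median and highest). All 6 exposed females lay above the sham mean, but the groups overlapped, and the log2 change of 0.31 ± 0.12 (SE) had an unadjusted p of 0.0188 and an adjusted p of 0.440 (edgeR). C8a, with the levels given above, had a log2 change of 0.21 ± 0.09 (adjusted p = 0.485, edgeR), with 5 of 6 exposed females above the sham mean. F9 had a log2 change of 0.24 ± 0.11, F12 of −0.22 ± 0.11 and C8g of −0.22 ± 0.11. Without animals 14 and 16, which stood apart on the library axis, these were 0.11, −0.11 and −0.12. Mbl2 then had a log2 change of 0.34 and C8a of 0.18.

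In males the smallest p-values belonged to C6, C3, F9, F12 and C1s. C6 had an unadjusted p of 0.00779 and an adjusted p of 0.829 (edgeR), with a log2 change of 0.37 ± 0.12 (SE) and all 6 exposed males above the sham mean of 121 CPM. C3 had 12515, 13837 and 14669 CPM in sham males and 14082, 14905 and 15805 CPM in PCB 52 males (lowest, median and highest). All 6 exposed males lay above the sham mean, the groups overlapped, and the log2 change was 0.13 ± 0.06 (unadjusted p = 0.0433, adjusted p = 0.829, edgeR). The log2 changes of F9, F12 and C1s were 0.16 ± 0.09, −0.19 ± 0.10 and 0.12 ± 0.08. Without animals 13 and 15, which stood apart on the library axis, they were 0.05, −0.06 and 0.14. C6 then had a log2 change of 0.34 and C3 of 0.15.

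Averaged over the sexes with all 24 animals, 9 of the 36 had an unadjusted p under 0.05, where 15.4% of all genes did, and none passed after adjustment (0.0% of all genes). C3 came first, with a log2 change of 0.15 ± 0.05 (SE, adjusted p = 0.173, edgeR). Its levels in females were 13807, 14481 and 15669 CPM in sham and 14752, 16316 and 17464 CPM in PCB 52 animals (lowest, median and highest), so that C3 was above its sham mean in 12 of 12 exposed animals. DESeq2 called C3, alone of the 36, at the same size of change (adjusted p = 0.0114), and it called 105 of all genes, while edgeR and limma-voom called none. F9 followed with 0.20 ± 0.07 (unadjusted p = 0.00669, adjusted p = 0.193, edgeR), with 652, 759.5 and 976 CPM in PCB 52 females and 765, 858 and 1049.7 CPM in PCB 52 males. C6 had 0.35 ± 0.12, F12 −0.20 ± 0.08 and Mbl2 0.20 ± 0.08, with adjusted p of 0.197, 0.229 and 0.253 (edgeR).

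The response did not differ detectably between the sexes. The interaction test called 0.0% of 10535 genes, none of the 36 had an unadjusted p under 0.05, where 2.27% of all genes did, and DESeq2 and limma-voom also called none. The terms with the smallest p, female response minus male response, were 0.16 ± 0.11 log2 units (SE) for C8a, 0.23 ± 0.16 for Mbl2, −0.24 ± 0.18 for F7, −0.11 ± 0.09 for Cfb and −0.15 ± 0.14 for C8g. None of the genes in the complement, coagulation, vitamin K, transcription factor and acute phase lists passed in either sex with edgeR.

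For 6 of the 36 genes, animals 13 to 16 stood at an end of the range of their sex. F12 (Entrez gene 306761) encodes factor XII, the protease that becomes active on negatively charged surfaces. Its levels in sham females were 798, 1009 and 1078 CPM and in sham males 713, 846 and 898 CPM (lowest, median and highest). PCB 52 females had 688, 809 and 1084 CPM and PCB 52 males 590.9, 723 and 846 CPM. Animals 13 to 16 had 590.9, 688, 606 and 717 CPM, the lowest of their sex, whereas the exposed animals 17 and 18 had 846 and 1084 CPM, inside or above the sham range. The sham animals 11 and 12 were the lowest of the sham animals, at 713 and 798 CPM, and animals 23 and 24 were at 667 and 758 CPM.

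Animals 13 to 16 were also the lowest of their sex for F10, Masp2 and Plg, and the highest for F9 and F13b. That is 4 of 36 genes at the low end and 2 at the high end, against 1.29% and 1.42% of all genes tested. In males the margin was narrow for F10, at 403.6 CPM in animal 15 and 404.3 CPM in animal 21. Masp2 was at 212.4 CPM in animal 13 and 214.2 CPM in animal 21. For Plg these 2 animals had 3543 and 3556 CPM. Earlier results of these data had already shown F12 at the low end of the axis on which these animals stood apart. Masp2, which encodes the protease of the lectin pathway that cuts C4, was at 212, 193, 199 and 177 CPM in animals 13 to 16, where the sham animals lay between 212 and 241 CPM. F9 ran the other way, at 1030.4, 853, 1049.7 and 976 CPM, above every sham animal of the same sex. The labels name no batch for these animals. Without them the log2 change averaged over the sexes was 0.08 for F9 and −0.08 for F12. It was 0.13 for C3, 0.27 for C6 and 0.16 for Mbl2.

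**Figure D4:**
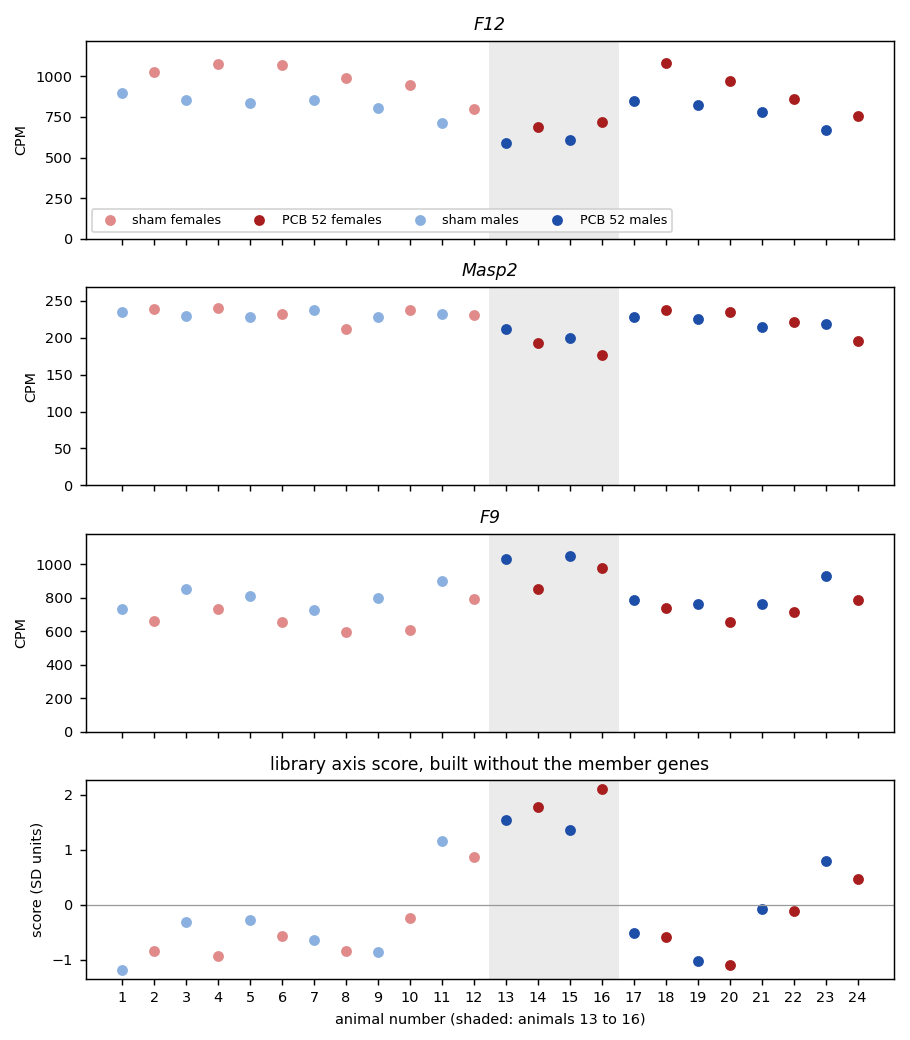
Levels of F12, Masp2 and F9 in CPM (y axes, from 0) and the library axis score in SD units, by animal number (x axis), 1 point per animal, coloured by group. Animals 13 to 16 (shaded) are the lowest of their sex for F12 and Masp2 and the highest for F9, and they have the highest axis scores.

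Genes whose products form a complex did not all vary together. After group means were removed, the fibrinogen chain genes rose and fell together across the 24 livers, with r = 0.975 for Fga and Fgb, 0.967 for Fga and Fgg and 0.955 for Fgb and Fgg. Spearman's rho was 0.963, 0.960 and 0.931, and each p was 1e-05, the smallest that 100000 permutations within groups could give (adjusted p = 3.33e-05 over 10 pairs). The relation held within each sex, at 0.983, 0.979 and 0.971 in females and 0.917, 0.885 and 0.851 in males, and without the 2 libraries farthest from the median, at 0.968, 0.959 and 0.936. Fga ran from 4065 to 6254 CPM over all animals, Fgb from 3041 to 5009 CPM and Fgg from 3025 to 4799.7 CPM. Over all 630 pairs of the 36 genes, which share their libraries, the median r was 0.200, with quartiles of −0.144 and 0.430, and the fibrinogen pairs were its 3 highest values.

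Fgg, Fga and Fgb lie side by side on chromosome 2 in RefSeq's order of genes, and their upstream sequences are shown because their RNA levels moved together. The windows are the 250 bases before each start in GRCr8, at chr2:170671919-170672168 (Fga, plus strand), chr2:170700876-170701125 (Fgb, minus strand) and chr2:170652833-170653082 (Fgg, plus strand). Capitals mark matches to STAT (TTCNNNGAA), C/EBP (TTGCNNAA), the HNF4 core CAAAG and the TATA box TATAAA, on either strand.
Fga: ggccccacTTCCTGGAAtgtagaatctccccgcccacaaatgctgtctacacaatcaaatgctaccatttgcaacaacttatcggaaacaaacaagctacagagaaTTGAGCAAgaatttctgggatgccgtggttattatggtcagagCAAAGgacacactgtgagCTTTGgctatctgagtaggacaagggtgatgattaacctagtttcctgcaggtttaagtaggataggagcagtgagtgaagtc
Fgb: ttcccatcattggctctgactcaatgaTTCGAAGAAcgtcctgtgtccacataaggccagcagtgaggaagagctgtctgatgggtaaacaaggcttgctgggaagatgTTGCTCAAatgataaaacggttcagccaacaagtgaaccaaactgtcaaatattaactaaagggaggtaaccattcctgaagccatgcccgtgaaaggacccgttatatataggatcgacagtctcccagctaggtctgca
Fgg: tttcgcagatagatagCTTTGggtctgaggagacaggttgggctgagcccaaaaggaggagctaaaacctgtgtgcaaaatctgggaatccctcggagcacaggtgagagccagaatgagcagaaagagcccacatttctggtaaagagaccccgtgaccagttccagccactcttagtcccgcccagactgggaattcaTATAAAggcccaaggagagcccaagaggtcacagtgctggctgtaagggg
The Fga and Fgb windows each hold a STAT and a C/EBP match, Fga also holds 2 HNF4 core matches, and the Fgg window holds an HNF4 core match and a TATA box.

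Upstream windows were found in RefSeq for 29 of the 36 genes, and the same letters were counted in all 27457 windows of that table. C/EBP matches were in 11 of the 29 (37.9%, against 9.20% of all windows), among them C3, C6, C8a, F9 and Serpinc1. STAT matches were in 7 (24.1%, against 7.52%), namely C4bpb, C8a, F9, Fga, Fgb, Pros1 and Vtn, and the motif reads the same on both strands. HNF4 core matches were in 19 (65.5%, against 48.1%), and the longer CAAAGTCCA was in none (0.331% of all windows). The exact letters TATAAA of a TATA box were in 1, Fgg (3.45%, against 13.1%). Other spellings of a TATA box were not searched, and the letters tatatata in the Fgb window were not counted. A STAT match overlapped no other motif in the sequences shown, and a match describes letters and not binding.

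C1r and C1s, neighbours on chromosome 4 whose proteases sit in the same C1 complex, correlated with r = 0.862 and rho = 0.864 (permutation p = 4e-05, adjusted p = 1.0e-04), and r was 0.843 without the 2 farthest libraries. C4bpa and C4bpb, the chains of C4b-binding protein, had r = 0.742 and rho = 0.816 (adjusted permutation p = 4.6e-04), and r = 0.737 without the 2 farthest. Among the 630 pairs, C1r with C1s ranked 7 from the highest and C4bpa with C4bpb ranked 27. C4bpa had a higher r with C9 (0.855), Cfi (0.817) and Pros1 (0.798) than with C4bpb, whose own highest r was with C4bpa. With only group means removed, the C8 chains did not follow each other. Their r was 0.16 for C8a and C8b, −0.43 for C8a and C8g and 0.18 for C8b and C8g. Their rho was 0.19, −0.37 and 0.05, with adjusted permutation p of 0.534, 0.130 and 0.522. Without the 2 farthest libraries r was −0.07, −0.43 and 0.10. With the library axis score removed, C8b and C8g had r = 0.597 and C8a with C8g had −0.03. The result for C8b and C8g therefore depended on that step.

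The paralogs of the lectin pathway gave opposite signs. Mbl1 and Mbl2 had r = 0.568 and rho = 0.547 (adjusted permutation p = 0.0155), and r = 0.566 without the 2 farthest libraries, with 0.789 in females and 0.145 in males. Masp1 and Masp2 had r = −0.497 and rho = −0.512 (adjusted permutation p = 0.0415). Their r was −0.424 without the 2 farthest libraries, −0.698 in females and −0.172 in males. The Masp1 and Masp2 relation was not seen once the axis score was removed (r = −0.03). The fibrinogen pairs then kept 0.969, 0.970 and 0.949, and C1r with C1s kept 0.906. Outside the pairs listed for shared complexes, the highest values were 0.894 for F2 and C8g, 0.886 for F13b and Pros1 and 0.883 for F2 and Plg. These were not recomputed without the 2 farthest libraries or with the axis score removed. Animal 16 was the lowest of all animals for F2, C8g and Plg, at 1775, 205 and 3037 CPM.

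**Figure D5:**
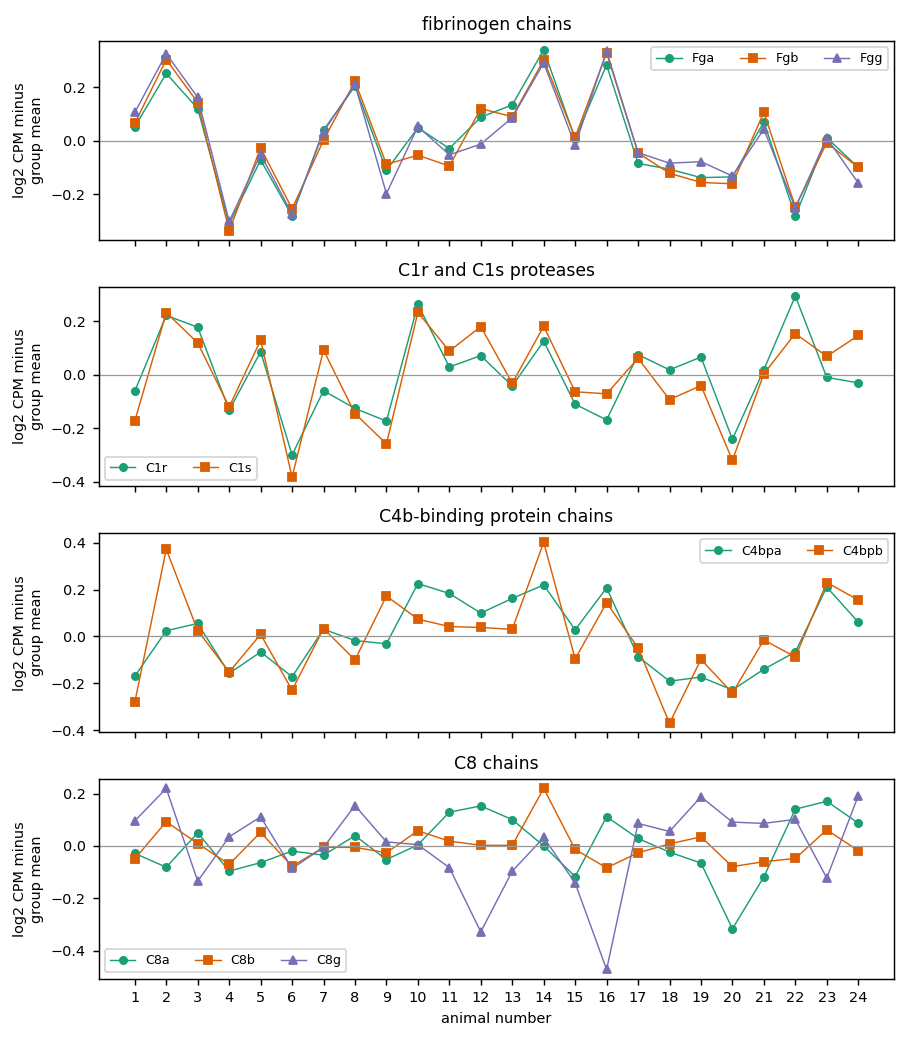
Group-centred level (y axis, log2 CPM minus the group mean) of subunit genes by animal number (x axis), with 1 marker per animal and lines that join the points of a gene. The fibrinogen chains overlie each other (r of 0.955 to 0.975, 24 animals). C1r and C1s and the C4b-binding protein chains follow each other (0.862 and 0.742, ranks 7 and 27 of 630 pairs). The C8 chains do not at these group-centred levels, although C8b and C8g had r = 0.597 with the library axis score removed.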

How the data were processed

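Liver RNA from 24 rats was sequenced, and gene counts came as 1 table per sex. The deposited values are raw counts per gene; the submitters' processing notes name FastQC, HISAT2 and the rn6 build, while the counting tool, annotation and strand setting are not given in the sources used here. Without strand, overlapping and antisense genes cannot be told apart. Totals of 6994832 to 9185511 counts gave every one of the 36 genes at least 479 counts in each library.

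Groups came from the sample labels. Genes were filtered with filterByExpr (edgeR 4.0.16, R 4.3.3), scaled by TMM and tested with edgeR's robust quasi-likelihood test, with Benjamini-Hochberg adjustment over all genes tested and a threshold of 0.05. Exposure was fitted within each sex; sex differences, the interaction and the average response came from 1 fit of all 24 libraries, so they share animals. Each animal is a separate liver. Replicates were numbered in accession order and pair nothing. Correlations used log2 CPM centred on group means, with 100000 permutations within groups. Alternatives were RLE scaling, other low-count filters, DESeq2 1.42.0, limma-voom (limma 3.58.1) with quality weights, a non-robust fit, the library axis as a covariate, a block of consecutive animals, 1 fit of all 24 for exposure, and leaving out animals 13 to 16 or each library. The fits were tested on simulated data. Upstream sequences are RefSeq's, from GRCr8. A further item searched is not reported here.

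Every one of the 36 is named with its level; beyond that, called genes are named, the 5 with the smallest p where fewer than 5 were called, and up to 4 per other list. The genes and lists were chosen with earlier results of these data known.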

Additional observations from a re-analysis of the deposited data

Results flagged for a closer look

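Of 144 groups of 6 animals (36 genes in 4 groups), 10 held an animal set far from the other 5, and chance alone marks about 1 in 20 groups. Animal 16, a PCB 52 female, was the lowest of its group for F2 at 1775 CPM (next 2373), Serpinf2 at 641 CPM (next 778) and C8g at 205 CPM (next 284). Animal 12, a sham female, was the lowest for F2 at 2277 CPM (next 2505) and the highest for Pros1 at 311 CPM (next 253). Animal 8, a sham female, was the lowest for C2 at 206 CPM (next 233) and Masp2 at 212 CPM (next 231). Klkb1 was at 172 CPM in animal 10, a sham female, with the next at 331 CPM. In males, C2 was at 243 CPM in animal 19 (next 213) and C4bpb at 253 CPM in animal 1 (next 320.4).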

How the results depend on the processing

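The sex differences of F7, C6, Vtn, Serpind1, F10 and Pros1 kept their direction and their call in both comparisons under every alternative run, as did C8a and Proc in PCB 52 animals. The number of the 36 called in sham animals was 10, against 16 with limma-voom, and ran from 6 (without animal 8) to 12 (without animal 2 or 16) with 1 library left out. Over all genes the sham calls ran from 1928 to 2189 with 1 library left out, against 2139 with none left out. Leaving out 1 library ended the sham call of F9 in 8 cases, Proc in 7, C8a in 6 and Serpinc1 in 6, and the PCB 52 call of F11 in 6 and Serpinc1 in 3. F11 passed in sham animals under DESeq2 (adjusted p = 0.0288), limma-voom (0.0295), the axis covariate (0.0337), without animals 13 to 16 (0.0455) and without animal 3 (0.0453). F9 passed in PCB 52 animals under the axis covariate (0.00748) and without animal 16 (0.0463).

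For exposure in females, DESeq2 called 28 genes, 1 fit of all 24 libraries called 1, and leaving out 1 library called 0 to 8 (8 without animal 20, 1 without animal 10). In males DESeq2 called 1. Averaged over the sexes, DESeq2 called 105 genes and 1 of the 36 (C3), and leaving out 1 library called 0 to 15 (15 without animal 20, 2 without animal 12, 1 without animal 18). Mbl2 in males changed sign without animals 13 to 16, to −0.027, and the C8a and C8b correlation changed sign with the axis removed, to −0.014; the cause of these changes was not tested. By replicate number, no paired analysis was possible because the numbers follow accession order and the labels give the animals no pairing. Consecutively numbered animals, 1 of each sex, were used as a block instead for the sex differences and the interaction. With it, 14 of the 36 were called in sham and 13 in PCB 52 animals. Of the genes named, F9 in PCB 52 animals gained a call (adjusted p = 0.0163, edgeR). The shares of all genes called with the block or with limma-voom are not given here. A rise in these counts is therefore not a result about the 36.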
